A study of Mus musculus with 9 samples.

Results

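The matrix metalloproteinase (MMP), ADAMTS, ADAMTS-like (ADAMTSL) and TIMP genes were followed across 3 sorted cell populations of the embryonic mouse knee. Members were chosen by gene symbol, under a rule that uses no measured value, though with earlier results of these data known, and number 41 of the 54532 genes in the deposited table. They comprise 16 MMPs, 16 ADAMTS proteases other than the procollagen ones, 5 ADAMTSL genes and 4 TIMPs. A mean of at least 10 normalized counts over the 9 libraries was met by 36 of them, which were tested, and 5 stayed below it (Mmp3, Mmp8, Mmp12, Mmp24 and Adamts13).

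The knees came from E14.5 embryos that carried 1 altered copy each of Creb5 (Creb5 3XHA-P2A-tdTomato/+) and Sox9 (Sox9 iresEGFP/+), so that every population shares both alleles and no unmodified embryos are compared. Cells freed with collagenase were sorted by fluorescence into GFP-only cells (the Sox9 reporter alone), RFP-only cells (the Creb5 reporter alone) and double-positive cells (both). Polyadenylated RNA of each population was sequenced in bulk from 3 litters, numbered 1, 2 and 5, which gives 3 libraries per population and 9 in all (written GFP1, DP1 and RFP1 for the GFP-only, double-positive and RFP-only libraries of litter 1, and so on), with 25199258 to 47079305 reads per library. The label of the deposited values says that other litters were left out, without giving a reason. The study's title ties Creb5 to genes of the joint interzone, where the joint cavity will form, and Sox9 is the transcription factor that directs cartilage formation.

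MMPs are zinc proteases that cut collagens and other matrix proteins, and most are made as inactive precursors that furin, plasmin or another MMP must open. ADAMTS proteases are secreted relatives with thrombospondin repeats, several of which cleave the cartilage proteoglycan aggrecan and the loose-matrix proteoglycan versican. ADAMTSL proteins keep the thrombospondin repeats but lack the protease domain and sit on fibrillin microfibrils, while TIMPs are the secreted inhibitors that block the active sites of MMPs and of some ADAMTS proteases.

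Values are normalized counts, that is, reads scaled by the authors to a common depth per library. Creb5 stood at 203 ± 68.1 in GFP-only, 3044 ± 333 in double-positive and 2960 ± 832 in RFP-only cells (mean ± SD, n = 3 throughout), and Sox9 at 28910 ± 8025, 23473 ± 6622 and 1618 ± 457, 2 genes whose reporters set the sort. Summed chondrocyte markers ranged from 1268910 to 1747493 in GFP-only, 259114 to 708104 in double-positive and 7450 to 13428 in RFP-only libraries, and interzone markers from 6673 to 7019, 45892 to 99080 and 34069 to 38918. Of the 8 interzone markers, 5 were called higher and 2 lower in RFP-only than GFP-only cells. In double-positive against GFP-only cells, 6 of them were called higher and 0 lower. Tendon markers lay at 13311 to 26458, 20375 to 47555 and 37204 to 46899, and skeletal muscle markers at 521 to 1011, 574 to 1839 and 4466 to 15827. Macrophage markers lay at 86.0 to 415, 2221 to 14747 and 1240 to 3979, and endothelial markers at 1040 to 1845, 1311 to 5106 and 4583 to 5522. Pericyte and smooth muscle markers summed to 15089 to 18265, 9963 to 19082 and 13103 to 17475, yet 7 of the 8 were called higher and 1 lower in RFP-only cells than in GFP-only cells. The part of these other cells in any member's difference was not tested, and in bulk RNA fewer cells of a type and less RNA per cell cannot be told apart. Library GFP5 stood apart: against the other 2 GFP-only libraries its genes with under 1 kb of exon were higher by a median log2 of 1.16, and those over 8 kb lower (-0.40). It was the lowest GFP-only library for 25 of the 36 tested members and the highest for 2, so the called differences from GFP-only cells are given with and without it, as are the uncalled ones printed here that it moves by over 1.5 times.

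Members that differed were nearly all lower in GFP-only cells than in a Creb5-reporter population, and Timp1 was the exception. In double-positive against GFP-only cells, 11 of 36 tested members were higher and 1 lower (adjusted p under 0.05), or 33.3%, beside 8.29% of all 17764 genes tested (5.27% higher and 3.02% lower). In RFP-only against GFP-only cells 17 were higher and 1 lower, or 18 of 36, beside 20.3% of all genes (11.8% higher and 8.48% lower). In double-positive against RFP-only cells none was higher and 2 were lower, or 5.56%, beside 2.85% of all genes (1.8% higher and 1.05% lower). The members' median log2 fold changes were 0.57, 1.21 and -0.48 in these comparisons, against 0.04, 0.05 and -0.01 for all genes. Both comparisons with GFP-only cells share the GFP-only libraries.

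ADAMTS and ADAMTSL genes supplied most of these calls. ADAMTS genes were higher in double-positive than GFP-only cells for 5 of 15 and in RFP-only cells for 10 of 15, while of the 5 ADAMTSL genes 4 were higher in each. A single MMP of the 12 tested, Mmp11, rose in both comparisons. Among the 4 TIMPs, Timp4 rose and Timp1 fell in both comparisons, and Timp2 rose in RFP-only cells. At least 1 comparison called 19 members, and 17 were called in none. No member was called higher, or called lower, in double-positive cells than both other populations, beside 0.236% and 0.0619% of all genes. At an unadjusted p under 0.05 the 3 comparisons gave 17, 22 and 7 members, beside 24.9%, 34.4% and 13.3% of all genes.

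**Figure D1:**
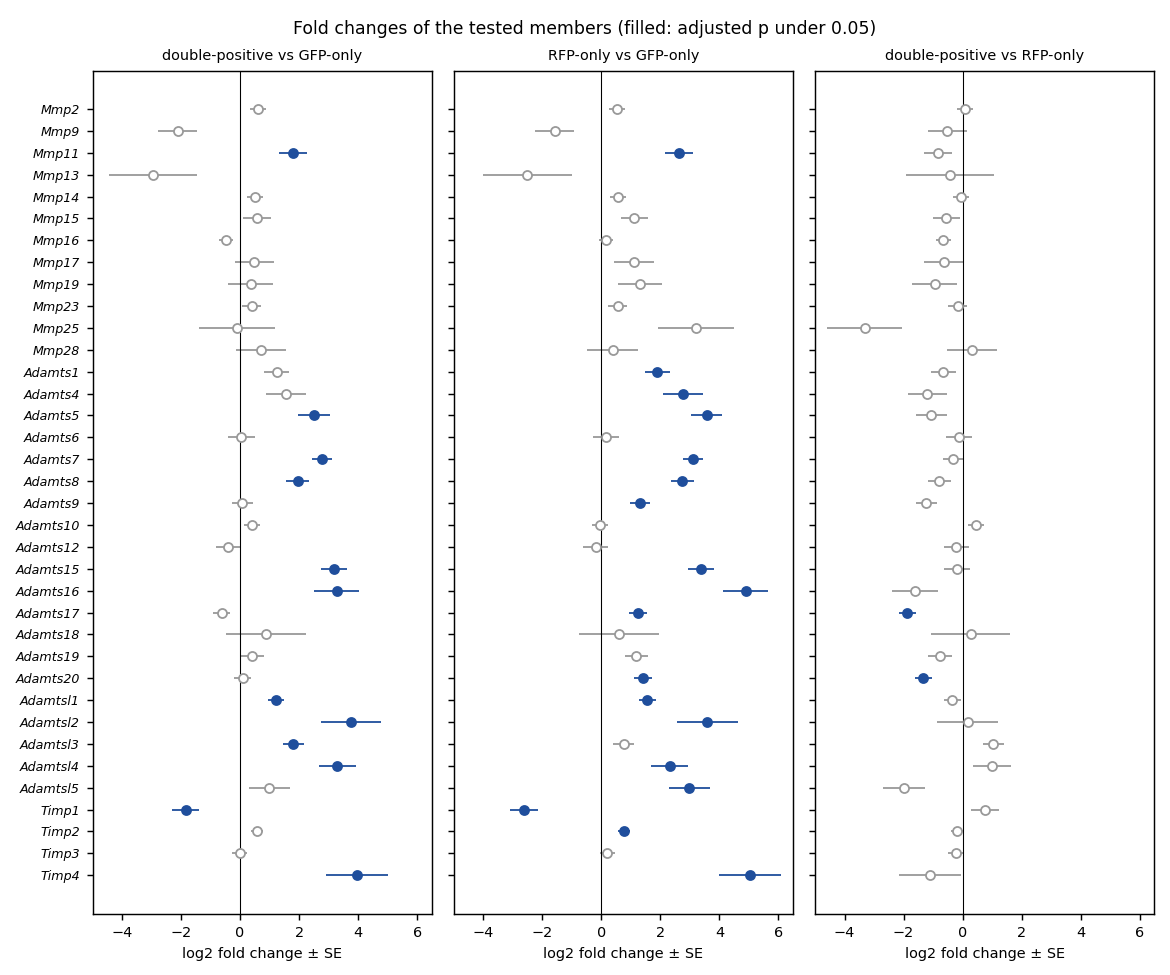
Log2 fold changes (x axis, points, with SE as lines) of the 36 tested members (y axis) in the 3 comparisons, filled blue where the adjusted p was under 0.05. Most filled points lie right of 0 in both comparisons with GFP-only cells (11 and 17), Timp1 is the filled point left of 0 there, and Adamts17 and Adamts20 are the filled points of the comparison with RFP-only cells.

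Summed over all 41 members, normalized counts were 59671 to 85467 in GFP-only, 83369 to 103900 in double-positive and 98048 to 126893 in RFP-only libraries. The ADAMTS sum was 6423 to 12513, 13681 to 20696 and 21320 to 29901, and the ADAMTSL sum 691 to 1595, 3107 to 3711 and 3480 to 4085, so for both families every GFP-only library lay below every other library. The MMP sums (22734 to 47034, 41750 to 50760 and 43675 to 56295) and the TIMP sums (21589 to 29823, 24227 to 29336 and 26888 to 36612) overlapped between populations.

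Starts of 26 of the 41 members were found in a RefSeq promoter table on GRCm38.p6, in 28 windows of 250 bases before the start. The called members Adamts4, Adamts5, Adamts7, Adamts8, Adamts15, Adamts16 and Adamtsl1 had no window there, so the shares below do not cover them. They were searched on both strands for the short motif TGACG of the cAMP response element (CRE), the element that CREB and ATF proteins bind, for the full element TGACGTCA, for the AP-1 site TGANTCA and for the SOX site AACAAT. The full element contains the short motif on both strands, and each pattern was counted separately. The short motif was in 5 of 28 member windows (17.9%) and in 17.8% of all 32851 windows. The full element was in none, against 1.55% of all windows. AP-1 sites were in 3 (10.7% against 6.75%) and SOX sites in 2 (7.14% against 9.42%). These are matches of letters, not sites of binding.

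Windows are shown for Timp1 (chrX:20869916-20870165, plus strand), the member that fell in both comparisons; for Mmp11 (chr10:75932503-75932752, minus strand), the MMP that rose; for Adamtsl3 (chr7:82335444-82335693, plus strand), whose 3 highest libraries were the double-positive ones; for Adamts17 (chr7:66839485-66839734, plus strand), which was lower in double-positive than RFP-only cells; and for Mmp13 (chr9:7272264-7272513, plus strand), which holds an AP-1 match. Each runs 5′ to 3′ and ends next to the RefSeq start (which for Mmp11 lies inside the longer GENCODE gene), and capitals mark any match.
Timp1: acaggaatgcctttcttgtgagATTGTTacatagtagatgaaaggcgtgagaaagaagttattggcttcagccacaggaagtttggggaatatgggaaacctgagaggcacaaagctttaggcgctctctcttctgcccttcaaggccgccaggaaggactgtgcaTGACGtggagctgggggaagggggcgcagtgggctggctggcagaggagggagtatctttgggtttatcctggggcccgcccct
Mmp11: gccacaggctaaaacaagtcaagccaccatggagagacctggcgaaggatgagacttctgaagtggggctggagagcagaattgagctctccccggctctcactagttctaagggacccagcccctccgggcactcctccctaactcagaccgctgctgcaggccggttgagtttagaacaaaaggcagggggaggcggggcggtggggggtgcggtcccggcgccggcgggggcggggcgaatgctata
Adamtsl3: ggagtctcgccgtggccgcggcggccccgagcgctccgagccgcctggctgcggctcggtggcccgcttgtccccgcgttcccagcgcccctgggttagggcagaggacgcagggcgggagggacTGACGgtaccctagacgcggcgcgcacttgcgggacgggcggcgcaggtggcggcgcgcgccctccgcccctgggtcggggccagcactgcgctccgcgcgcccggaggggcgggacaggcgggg
Adamts17: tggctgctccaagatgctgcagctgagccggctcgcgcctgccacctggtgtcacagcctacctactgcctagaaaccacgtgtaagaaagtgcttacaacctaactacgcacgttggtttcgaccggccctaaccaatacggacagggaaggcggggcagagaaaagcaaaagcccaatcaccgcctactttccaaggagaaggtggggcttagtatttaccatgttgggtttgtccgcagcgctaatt
Mmp13: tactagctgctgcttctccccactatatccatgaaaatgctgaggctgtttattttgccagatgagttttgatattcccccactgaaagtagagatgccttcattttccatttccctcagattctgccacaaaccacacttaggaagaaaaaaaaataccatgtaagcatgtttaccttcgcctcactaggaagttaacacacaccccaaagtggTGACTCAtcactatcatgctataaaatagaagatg
In Timp1 the capitals are a SOX match whose first base lies 228 bases before the start and a short CRE motif at 84. The Adamtsl3 match is a short CRE motif at 125, and the Mmp13 match an AP-1 site at 35. Short CRE motifs also lay in the windows of Adamts1 (170), Adamts9 (218) and Adamts12 (205), AP-1 sites in those of Mmp3 (46) and Mmp12 (44), and a SOX match in that of Mmp25 (182). Mmp11 and Adamts17 held none of the patterns.

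The collagen- and gelatin-cutting MMPs with the highest levels were not called in any comparison. Mmp14, the membrane-bound MMP that activates the precursor of Mmp2, had 14390, 18631 and 9210 normalized counts in the GFP-only libraries of litters 1, 2 and 5. Its values were 16814, 20703 and 20439 in double-positive and 17016, 20465 and 22512 in RFP-only cells. The lowest was GFP5, the groups overlapped, and the log2 differences from GFP-only cells were 0.51 ± 0.26 (SE; adjusted p = 0.246) and 0.56 ± 0.26 (adjusted p = 0.15). Mmp2, which encodes gelatinase A, had a like pattern, at 12717, 19532 and 9847 in GFP-only, 18398, 19600 and 24103 in double-positive and 15098, 20235 and 24460 in RFP-only cells. Its log2 differences were 0.61 ± 0.27 (adjusted p = 0.197) and 0.54 ± 0.27 (adjusted p = 0.189). With quantile normalization Mmp2 and Mmp14 were called higher in RFP-only cells (log2 fold changes 0.89 and 0.90, adjusted p = 0.0492 and 0.0447). Without GFP5 the differences shrank to 0.23 and 0.28 for Mmp14 and 0.38 and 0.31 for Mmp2, none of them called.

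Mmp11, at chromosome 10, 75923222 to 75936496 on the minus strand (GENCODE M21, GRCm38, as for all gene positions here), encodes stromelysin-3, which furin activates inside the cell. It had 1302, 1511 and 379.9 normalized counts in GFP-only libraries, 3844, 3922 and 2040 in double-positive and 6518, 6096 and 4375 in RFP-only cells, in litter order. The 3 groups followed each other without overlap, with double-positive cells in between, an order seen with no overlap in only 2 tested members (the other was Adamts16) and in 5.58% of all genes. Mmp11 rose in double-positive cells by a log2 of 1.79 ± 0.47 (adjusted p = 0.0391) and in RFP-only cells by 2.62 ± 0.47 (adjusted p = 0.00265). The difference between double-positive and RFP-only cells was -0.83 (adjusted p = 0.534). Without GFP5 the 2 rises were 1.16 and 1.99, both still called. The double-positive call was lost when DP1 or DP2, or any RFP-only library, was left out (adjusted p = 0.0553 to 0.14). By edgeR the double-positive rise was 1.64 and not called (adjusted p = 0.0595). Exons of Mmp11 share 155 bases with Chchd10 on the other strand, and reads there cannot be assigned, since the sources used here give no strand setting of the counting.

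Mmp9, gelatinase B of osteoclasts and of cells that remove cartilage, had 1600, 3149 and 326 normalized counts in GFP-only cells. Double-positive cells had 258, 193 and 409, and RFP-only cells 328, 344 and 539. In litters 1 and 2 the GFP-only value was the highest of the litter by a wide margin, and in litter 5 it was the lowest. The differences were -2.11 ± 0.66 (adjusted p = 0.0751) and -1.58 ± 0.66 (adjusted p = 0.116). Without GFP5, Mmp9 fell in double-positive cells by a log2 of 3.03 ± 0.40 (adjusted p = 0.00249) and in RFP-only cells by 2.51 ± 0.40 (adjusted p = 0.00221). With all 9 libraries, 3 alternatives also called both falls: edgeR (-2.54, adjusted p = 0.0442, and -2.06, adjusted p rounding to 0.05 from below), DESeq2 (-2.56, adjusted p = 0.000448, and -2.07, adjusted p = 0.00388) and array weights (-2.95, adjusted p = 0.00178, and -2.50, adjusted p = 0.000693). Summed osteoclast markers were 3781 to 7676 in GFP-only, 7796 to 8009 in double-positive and 6245 to 9568 in RFP-only libraries. None of the 5 tested osteoclast markers was called in any comparison. Acp5 had means of 360.4, 237 and 260.4 and Ctsk 2051, 1921 and 5438, while Dcstamp, needed for osteoclasts to fuse, was at 0 in every GFP-only library, in DP1 and in DP5. Their part in the Mmp9 values was not tested.

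Mmp13, the collagenase of late hypertrophic chondrocytes and osteoblasts, had 15.7, 235 and 175 normalized counts in GFP-only libraries, 0, 13.2 and 105 in double-positive and 6.86, 23.8 and 18.2 in RFP-only cells. Its values differed by over an order of magnitude between litters of 1 population, the groups overlapped, and neither difference was called (log2 -2.95 ± 1.5, adjusted p = 0.25, and -2.51 ± 1.5, adjusted p = 0.258). Summed prehypertrophic and hypertrophic markers were 79426 to 227418 in GFP-only, 5947 to 25948 in double-positive and 6603 to 11588 in RFP-only libraries, and of the 7 markers 6 and 7 fell. Col10a1, the collagen of hypertrophic chondrocytes, had 10049, 72495 and 58216 in GFP-only libraries, lowest in litter 1 as Mmp13 was. The part of these cells in the Mmp13 values was not tested. Mmp15, Mmp16 and Mmp17, membrane-bound MMPs, had means of 129 to 248, 2067 to 3207 and 236 to 376 over the populations and were not called. Mmp23 lay at 363 to 551, and Mmp19, Mmp25 and Mmp28 stayed at means of 40.0 or less. Mmp25 had 47.2, 36.2 and 16.8 in RFP-only cells against 9.92, 0 and 2.71 in GFP-only cells, without overlap, with a log2 difference of 3.21 ± 1.28 (adjusted p = 0.102).

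Stromelysin-1 (Mmp3) and macrophage elastase (Mmp12) had no read in any GFP-only library and at most 26.2 and 60.6 normalized counts elsewhere, both in DP5. Mmp24 had 80 reads over the double-positive libraries, against 5 in GFP-only and 14 in RFP-only libraries. No read was recorded for the neutrophil collagenase Mmp8 or for Adamts13, the plasma protease that cuts von Willebrand factor, where a count of 0 allows up to 3 reads per library.

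**Figure D2:**
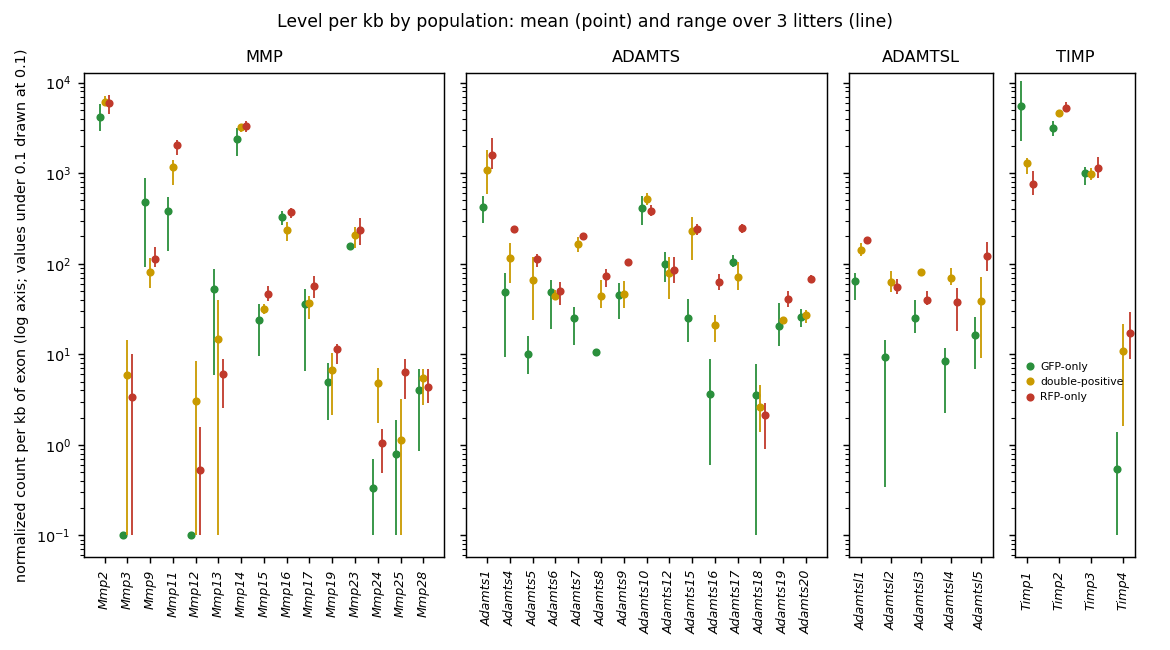
Normalized count per kb of exon (log y axis, values under 0.1 drawn at 0.1) for every member with a read, by family (panels), as the mean (point) and range (line) over 3 litters in GFP-only (green), double-positive (yellow) and RFP-only (red) cells. Mmp2, Mmp14, Timp1 and Timp2 top the scale, and most ADAMTS and ADAMTSL genes have their green point lowest.

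Levels of different genes are set side by side only per kb of exon. In GFP-only cells the highest members on this scale were Timp1 at 5574 (2246 to 10344 over the litters), Mmp2 at 4163, Timp2 at 3122 and Mmp14 at 2362. In double-positive cells the order was Mmp2 (6141), Timp2 (4577), Mmp14 (3241), Timp1 (1288) and Mmp11 (1177). In RFP-only cells it was Mmp2 (5913), Timp2 (5253), Mmp14 (3355), Mmp11 (2039) and Adamts1 (1602). Timp1 thus led the mean order in GFP-only cells and stood at 766 in RFP-only cells, while Mmp11 and Adamts1 moved up. The range of Timp1 in GFP-only cells spans that of Mmp2, so the 2 do not differ there beyond their spread.

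Several proteases that cut aggrecan or versican were among the ADAMTS genes that rose. Adamts5, a main aggrecan-cutting enzyme of mouse cartilage (chromosome 16, 85856173 to 85901828), had 90.9, 173 and 65.1 normalized counts in GFP-only libraries, 258, 1291 and 571 in double-positive and 988, 1392 and 1270 in RFP-only cells. Every GFP-only library was below every other library, and the double-positive values were spread widely. The log2 rises were 2.50 ± 0.53 (adjusted p = 0.0162) and 3.57 ± 0.53 (adjusted p = 0.000918), and without DP2 the first had an adjusted p of 0.0611. Adamts4, the other main aggrecanase, had 288, 378 and 44.8, then 295, 825 and 529, then 1057, 1198 and 1219. The RFP-only libraries stood above all others, the double-positive ones overlapped the GFP-only ones, and only the RFP-only rise of 2.76 ± 0.67 was called (adjusted p = 0.014; double-positive 1.56 ± 0.67, adjusted p = 0.177, and 0.61 without GFP5). Leaving out GFP5 brought the RFP-only rise of Adamts4 to 1.80 (adjusted p = 0.00825), and leaving out RFP5 gave an adjusted p of 0.0501.

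Adamts15, which cleaves versican and aggrecan (chromosome 9, 30899155 to 30922452), had 226, 418 and 141 normalized counts in GFP-only libraries, 2648, 3425 and 1136 in double-positive and 2845, 2158 and 2440 in RFP-only cells. The 2 reporter populations overlapped each other and both lay clear of GFP-only cells. It rose by a log2 of 3.19 ± 0.44 (adjusted p = 0.00215) and 3.37 ± 0.44 (adjusted p = 0.000434). Adamts8, a close relative of Adamts15, had 46.3, 52.6 and 47.5 in GFP-only, 149.9, 309 and 151 in double-positive and 253, 361 and 400.4 in RFP-only cells. Its GFP-only libraries were close to each other, and it rose by 1.95 ± 0.39 (adjusted p = 0.0124) and 2.74 ± 0.39 (adjusted p = 0.000698), the first with an adjusted p of 0.0587 without DP2. Adamts8 shares 489 exon bases with Gm29724 on the other strand.

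Adamts1, which cleaves versican and is induced in many tissues by inflammation and hormones, had 2982, 2256 and 1486 normalized counts in GFP-only libraries, 3127, 4431 and 9527 in double-positive and 6798, 5880 and 12810 in RFP-only cells. Per kb its mean was the highest of the ADAMTS genes in each population, but in GFP-only cells it did not differ from Adamts10 beyond their spread (422.8 ± 141 and 413 ± 148). Litter 5 was its lowest GFP-only and its highest library in both other populations. The RFP-only rise was 1.89 ± 0.42 (adjusted p = 0.00936). Double-positive and GFP-only values did not overlap either, yet the rise of 1.24 ± 0.42 was not called (adjusted p = 0.0977).

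Adamts9 and Adamts20, the pair related to GON-1 of Caenorhabditis elegans, and Adamts17 shared another pattern, with the RFP-only libraries above both other populations. Adamts20 had 179, 282 and 239 normalized counts in GFP-only libraries, 263, 198 and 277 in double-positive and 670.3, 614 and 557 in RFP-only cells. GFP-only and double-positive values interleaved, and RFP-only values lay clear of them. Adamts20 was higher in RFP-only cells than in GFP-only cells by a log2 of 1.41 ± 0.29 (adjusted p = 0.00604) and lower in double-positive than RFP-only cells (-1.33 ± 0.29, adjusted p = 0.0361). That last call was lost when any 1 of the 6 libraries compared was left out (adjusted p = 0.0844 to 0.149), and with litter as a fixed block (adjusted p = 0.0581).

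Adamts17, which is mutated in a human syndrome of short stature and lens displacement, had 758, 967 and 715 normalized counts in GFP-only libraries, 435, 807 and 400.0 in double-positive and 2125, 1712 and 1887 in RFP-only cells (chromosome 7, 66839735 to 67153171). The lowest RFP-only library had more than any library of the other populations. It was higher in RFP-only cells than in GFP-only cells by a log2 of 1.24 ± 0.29 (adjusted p = 0.0119) and lower in double-positive than RFP-only cells (-1.87 ± 0.29, adjusted p = 0.00581). Of all members it had the smallest adjusted p in the latter comparison. Its double-positive mean lay below that of GFP-only cells, but that difference was not called (-0.63 ± 0.29, adjusted p = 0.205). Without RFP1 the RFP-only rise had an adjusted p of 0.0568.

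Adamts9 had 739.8, 913 and 372 normalized counts in GFP-only libraries, 619, 962 and 490.5 in double-positive and 1645, 1551 and 1495 in RFP-only cells. RFP-only libraries again stood above the rest. The rise over GFP-only cells was 1.31 ± 0.35 (adjusted p = 0.023), and 0.93 without GFP5 (adjusted p = 0.0378). It was lost without any 1 RFP-only library (adjusted p = 0.0647 to 0.0798). Double-positive cells were lower than RFP-only cells by a log2 difference of -1.23 ± 0.35 that was not called (adjusted p = 0.101), and was called without GFP5 (-1.23, adjusted p = 0.0185). Adamts9 shares 1381 exon bases with A730049H05Rik and 424 with Gm15737, both on the other strand.

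**Figure D3:**
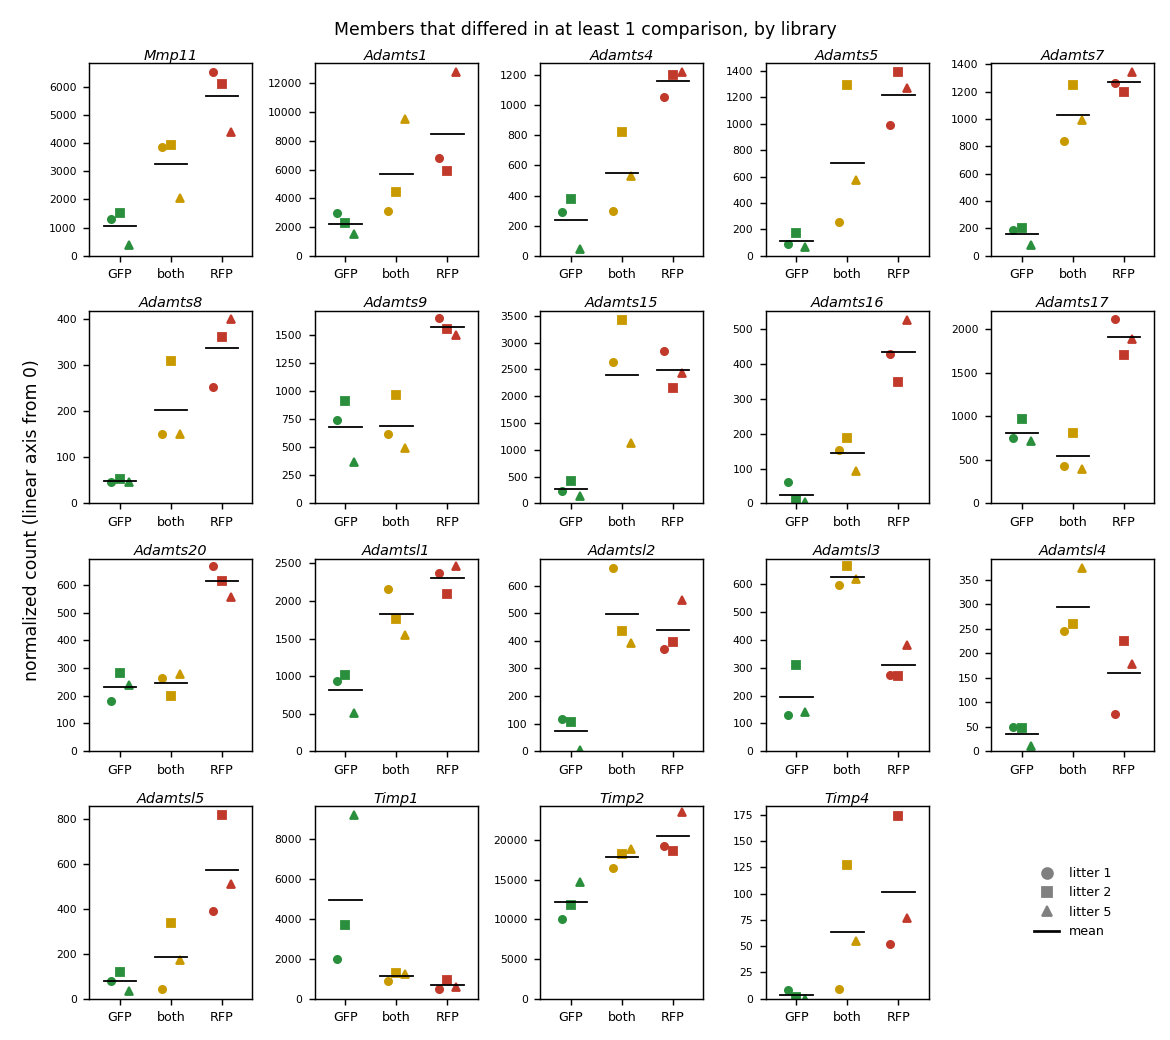
Normalized count (linear y axis from 0) of the 19 members called in at least 1 comparison, by population (GFP, GFP-only; both, double-positive; RFP, RFP-only), with 1 marker per library shaped by litter and a bar at the mean of 3. Timp1 alone is highest in GFP-only cells, while Adamts9, Adamts17 and Adamts20 have GFP-only and double-positive cells at like levels under RFP-only cells.

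Adamts7, which cleaves cartilage oligomeric matrix protein (COMP), gave the firmest difference of the group (chromosome 9, 90163069 to 90208071). It had 192, 207 and 80.0 normalized counts in GFP-only libraries, 839, 1251 and 992 in double-positive and 1264, 1198 and 1344 in RFP-only cells. GFP-only libraries lay far below the others, and the double-positive and RFP-only values overlapped. The rises were 2.78 ± 0.35 (adjusted p = 0.00149) and 3.10 ± 0.35 (adjusted p = 0.000174), and both were called in all 26 alternatives run. Exons of Adamts7 share 122 bases with Tbc1d2b on the other strand. Adamts12, the other COMP-cutting ADAMTS, had means of 1085, 859.8 and 941 and was not called (-0.40 ± 0.42, adjusted p = 0.587, and -0.19 ± 0.42, adjusted p = 0.778, or -0.70 and -0.49 without GFP5).

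Adamts16, which has been shown to cut fibronectin (chromosome 13, 70727802 to 70841811), had 61.2, 8.57 and 4.07 normalized counts in GFP-only libraries, 153, 187 and 92.7 in double-positive and 427, 349 and 525 in RFP-only cells. The 3 groups did not overlap, in the same order as for Mmp11. It rose by a log2 of 3.27 ± 0.77 (adjusted p = 0.0248) and 4.89 ± 0.77 (adjusted p = 0.00121). The double-positive rise was 2.52 (adjusted p = 0.0532) without GFP5, and was also lost without GFP2 or DP1 or DP2 (adjusted p up to 0.1). By edgeR it was 2.51 and not called (adjusted p = 0.0801).

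Other ADAMTS genes showed no difference that passed. Adamts10, a fibrillin-linked member and per kb the second ADAMTS gene, had means of 3409, 4303 and 3168. Adamts6, its closest relative, had 385, 347 and 386, and Adamts18 at most 79.6 in any library. Adamts19 had 565, 699 and 472 in RFP-only cells against 512, 173 and 178 in GFP-only cells, overlapping because GFP1 exceeded RFP5. Its log2 difference of 1.19 ± 0.40 was not called (adjusted p = 0.06), and was called without GFP1 (1.70, adjusted p = 0.00421).

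The ADAMTSL genes had their lowest mean in GFP-only cells in every case and differed in which other population was highest. Adamtsl1 had 934, 1011 and 503 normalized counts in GFP-only libraries, 2161, 1756 and 1546 in double-positive and 2369, 2096 and 2465 in RFP-only cells. The GFP-only libraries lay under all others, and it rose by a log2 of 1.21 ± 0.28 (adjusted p = 0.0238) and 1.56 ± 0.28 (adjusted p = 0.00278). Without DP1 or DP2 the first had an adjusted p of 0.0808 to 0.0936.

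Adamtsl3 (chromosome 7, 82335694 to 82614450) had 131, 308 and 142 normalized counts in GFP-only libraries, 597, 666 and 621 in double-positive and 275, 269.5 and 384 in RFP-only cells. Double-positive libraries were the 3 highest, and the other populations overlapped each other. It rose in double-positive over GFP-only cells by a log2 of 1.80 ± 0.36 (adjusted p = 0.0118). Neither the difference of double-positive from RFP-only cells (1.04 ± 0.36, adjusted p = 0.183) nor that of RFP-only from GFP-only cells (0.76 ± 0.36, adjusted p = 0.154) was called. A fit to only the 2 populations compared called the former (adjusted p = 0.0375), and a fit without GFP2 the latter (1.15, adjusted p = 0.0275). Leaving out DP2 gave the rise over GFP-only cells an adjusted p of 0.0533.

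Adamtsl4, a fibrillin-binding protein whose loss displaces the lens in humans, had the same order of means, at 48.8, 47.8 and 9.50 in GFP-only, 246, 259.6 and 375 in double-positive and 75.4, 224 and 178 in RFP-only cells. No library of 1 population reached into another. The log2 rises were 3.30 ± 0.64 (adjusted p = 0.0105) and 2.31 ± 0.64 (adjusted p = 0.0258), the latter 1.56 (adjusted p = 0.0453) without GFP5 and lost without RFP2 or RFP5 (adjusted p = 0.0928 to 0.0965). The difference between double-positive and RFP-only cells was 0.99 ± 0.64 (adjusted p = 0.626).

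Adamtsl2, which binds fibrillin and is mutated in human geleophysic dysplasia, moved the most among the called members without the library that stands apart. It had 115, 106 and 2.71 normalized counts in GFP-only libraries, 665, 436 and 393 in double-positive and 372, 396 and 547 in RFP-only cells. The litter 5 value in GFP-only cells was far below the other 2, which were themselves below every reporter library. The log2 rises of 3.76 ± 1.03 (adjusted p = 0.0481) and 3.59 ± 1.03 (adjusted p = 0.0313) became 2.12 (adjusted p = 0.00417) and 1.96 (adjusted p = 0.0022) without it. Leaving out any 1 double-positive or RFP-only library ended the first call (adjusted p = 0.0713 to 0.141) and any 1 RFP-only library the second (adjusted p = 0.073 to 0.0987). The first call was lost in 14 of the 26 alternatives run and the second in 8. By edgeR the rises were 2.73 (adjusted p = 0.068) and 2.54 (adjusted p = 0.0503).

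Adamtsl5 had 80.2, 121 and 32.6 normalized counts in GFP-only libraries, 43.2, 338 and 173 in double-positive and 389, 818 and 511 in RFP-only cells. RFP-only libraries were the 3 highest, and the double-positive ones overlapped the GFP-only ones. Its RFP-only rise was 2.98 ± 0.70 (adjusted p = 0.0123), with an adjusted p of 0.0534 without RFP2, and the double-positive difference was 0.99 ± 0.70 (adjusted p = 0.409), or 0.47 without GFP5.

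Among the inhibitors, Timp1, which blocks most MMPs and is induced by many growth factors and cytokines, was the 1 member called lower in the comparisons with GFP-only cells when all 9 libraries were used (chromosome X, 20870166 to 20874735). It had 1995, 3668 and 9185 normalized counts in GFP-only libraries, 870.5, 1307 and 1252 in double-positive and 509.6, 934 and 596 in RFP-only cells. Even the lowest GFP-only value exceeded all 6 others, and the highest came from the litter 5 library, in which short genes were high. Timp1 fell in double-positive cells by a log2 of 1.85 ± 0.47 (adjusted p = 0.0336) and in RFP-only cells by 2.63 ± 0.47 (adjusted p = 0.0026). Without that library the differences were -1.26 (adjusted p = 0.0462) and -2.04, and with a correction for exon length -1.53 in double-positive cells (adjusted p = 0.0187). The double-positive call was lost without GFP2, any double-positive library or RFP5 (adjusted p = 0.0519 to 0.116). Timp1 lies within Syn1, on the opposite strand, and shares no exon base with it.

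Timp2, which takes part in the activation of the Mmp2 precursor by Mmp14, moved the other way. It had 10038, 11798 and 14659 normalized counts in GFP-only libraries, 16425, 18273 and 18798 in double-positive and 19188, 18660 and 23548 in RFP-only cells. GFP-only libraries were the 3 lowest. The RFP-only rise was 0.76 ± 0.20 (adjusted p = 0.0208), and it was lost without GFP1 or RFP1 or RFP5 (adjusted p = 0.0593 to 0.102). The double-positive rise of 0.57 ± 0.20 was not called (adjusted p = 0.108), and was called without GFP5 (0.71, adjusted p = 0.0187).

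Timp3, the matrix-bound inhibitor of Adamts4 and Adamts5, had 9547, 8858 and 5979 in GFP-only, 6921, 7583 and 9231 in double-positive and 8643, 7120 and 12391 in RFP-only cells. The groups overlapped fully and no difference was called (-0.02 ± 0.26, adjusted p = 0.972, and 0.20 ± 0.26, adjusted p = 0.619, or -0.23 and -0.01 without GFP5). Timp4 (chromosome 6, 115241892 to 115252205) rested on few reads, with 11 over the GFP-only, 246 over the double-positive and 278 over the RFP-only libraries. Its values were 8.27, 1.22 and 0 in GFP-only, 9.61, 127 and 54.6 in double-positive and 52.6, 174 and 77.0 in RFP-only cells. The lowest double-positive library barely exceeded the highest GFP-only one. The log2 rises were 3.95 ± 1.05 (adjusted p = 0.0429) and 5.04 ± 1.05 (adjusted p = 0.00649). The first was lost with litter as a fixed block (adjusted p = 0.0528) and without GFP2 or GFP5, DP2 or DP5 or any RFP-only library (adjusted p = 0.0629 to 0.169). By edgeR the first was 4.17 and not called (adjusted p = 0.0615). Timp4 shares 90 exon bases with Syn2, and Timp3 1733 with Syn3, both on the other strand.

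Without library GFP5, 10 members were higher and 2 lower in double-positive than GFP-only cells, and 17 and 2 in RFP-only cells, beside 8.74% and 20.6% of all genes called in either direction. Mmp9 was the added fall in both, Timp2 was added among the double-positive rises, and Adamts16 and Timp4 dropped out there. The double-positive rises of Adamts5, Adamts8 and Adamts15 were then 2.19 (adjusted p = 0.0431), 1.93 (adjusted p = 0.0192) and 2.82 (adjusted p = 0.00483), and their RFP-only rises 3.25, 2.72 and 3.00. Adamts7 rose by 2.34 and 2.66, Adamtsl1 by 0.89 and 1.24, and Adamts16 in RFP-only cells by 4.14. Adamts1, Adamts17 and Adamts20 rose in RFP-only cells by 1.62, 1.15 and 1.44, Adamtsl5 by 2.46 and Timp4 by 4.31, while Adamtsl3 and Adamtsl4 rose in double-positive cells by 1.63 and 2.55. On the log2 scale these values lie within 1.5 times of those from all 9 libraries, unlike those of Mmp11 in double-positive cells, Adamts4 and Adamtsl2.

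**Figure D4:**
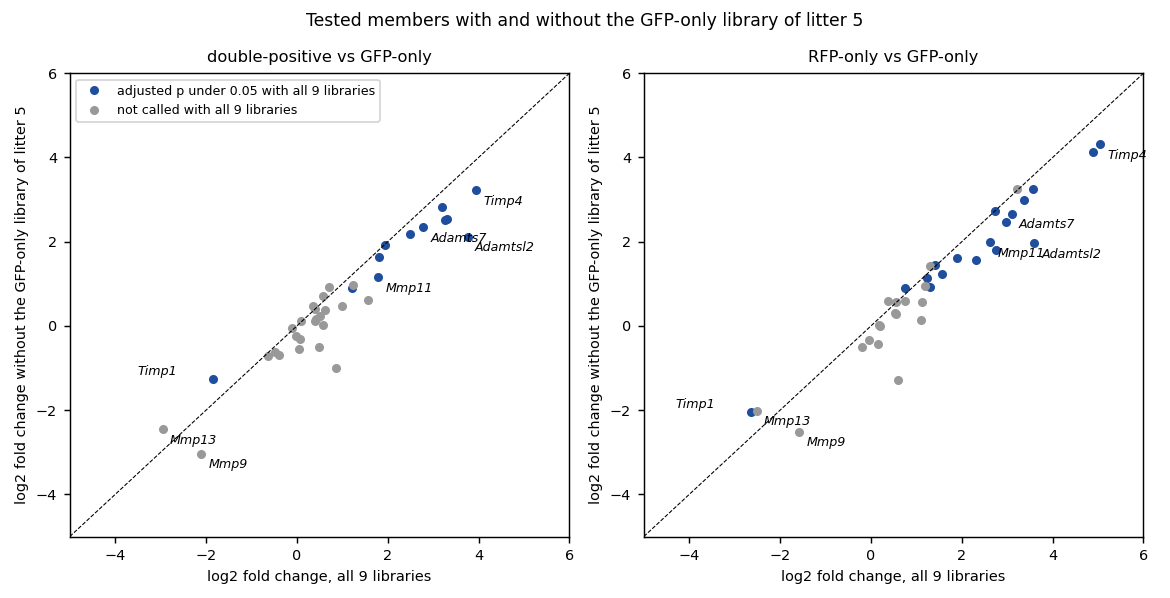
Log2 fold change of the 36 tested members with all 9 libraries (x axis) and without GFP5 (y axis), in both comparisons with GFP-only cells, blue where called with all 9 libraries, with equality as the dashed line. Adamtsl2, at 3.76 and 2.12 in double-positive cells, lies well below the line, and Mmp9 lies further below 0 without the library (-3.03).

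Over both comparisons with GFP-only cells and that of the reporter populations, the members gave 32 calls, each with 1 sign in all 3 litters. Of these, 30 were called without GFP5, all 32 after a correction for exon length, and none changed sign in any alternative. A total of 9 were called under all 26 alternatives, namely Adamts7 in both comparisons with GFP-only cells and Mmp11, Adamts5, Adamts8, Adamts15, Adamts16, Adamtsl1 and Timp1 in RFP-only cells. Between groups, 13 members were higher and 1 lower in double-positive than GFP-only cells with no overlap (14.3% and 13.8% of all genes, 28.1% in sum), and 19 and 1 in RFP-only cells (20.9% and 18.5%, 39.4% in sum). Against RFP-only cells 2 double-positive groups lay above and 10 below with no overlap, beside 11.2% and 12.6% of all genes, 23.8% in sum, although only 2 of these 12 differences were called.

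The procollagen ADAMTS genes, which trim the ends of fibrillar procollagens and are no members, parted from each other. Adamts2 had 364, 873 and 138 normalized counts in GFP-only libraries, 567, 2304 and 1130 in double-positive and 3989, 5807 and 4845 in RFP-only cells, and rose in RFP-only cells by a log2 of 3.77 ± 0.61 (adjusted p = 0.00153). Adamts3, the procollagen protease of cartilage, had 1708, 1672 and 1119 in GFP-only, 210.4, 172 and 500.2 in double-positive and 332, 207 and 298 in RFP-only cells. Each GFP-only library exceeded all 6 others, and Adamts3 fell by 2.48 ± 0.40 (adjusted p = 0.00427) and 2.42 (adjusted p = 0.00166). Adamts14 fell in RFP-only cells by 1.82 (adjusted p = 0.00471). The 7 further mouse MMP genes looked up had too few reads for a test, and 4 of them had none.

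Of 18 genes that activate, inhibit or tether these proteases, 2 were higher and 1 lower in double-positive than GFP-only cells, 4 and 4 in RFP-only cells than in GFP-only cells, and 0 and 1 (Plat) in double-positive than RFP-only cells. Plat, the tissue-type plasminogen activator, had means of 247 ± 71.7, 1785 ± 1106 and 6310 ± 517, and rose by a log2 of 2.69 ± 0.41 and 4.71 ± 0.41. Its difference between double-positive and RFP-only cells (-2.02 ± 0.41, adjusted p = 0.0244) was not called without DP1, DP5 or any RFP-only library (adjusted p = 0.0734 to 0.108). Pcsk6, a furin-like convertase, fell in double-positive cells by 2.16 ± 0.38, from 4448 ± 2067 to 914 ± 173. Its RFP-only mean was 1026 ± 286, also called lower than in GFP-only cells (-2.01 ± 0.38, adjusted p = 0.00371). Cd44, a cell-surface receptor that can hold MMPs, rose in RFP-only cells by 2.92 ± 0.51, and Sdc4, a syndecan, fell there by 2.52 ± 0.42. Htra1, a secreted serine protease that cuts matrix proteins, rose by 2.26 ± 0.35 in double-positive and 1.61 in RFP-only cells.

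Of 18 tested substrates and matrix partners of these proteases, 3 were higher and 5 lower in double-positive than GFP-only cells, 6 and 7 in RFP-only cells than in GFP-only cells, and 4 and 0 in double-positive than RFP-only cells. Versican (Vcan) had means of 1753 ± 566, 7991 ± 2230 and 6933 ± 1978. It rose in double-positive cells by a log2 of 2.21 ± 0.32 and in RFP-only cells by 2.0 ± 0.32 (adjusted p = 0.00136). Aggrecan (Acan) had 50701 ± 9545, 14737 ± 9374 and 211 ± 150.2, with a log2 difference of -8.38 in RFP-only and 6.44 between double-positive and RFP-only cells. Comp had 76181 ± 30860, 6550 ± 6813 and 214 ± 185. Adamts4, Adamts5 and Adamts15 had their lowest means where the aggrecan gene had its highest, and Adamts7 where Comp had its highest, whereas the mean of Adamts12, which also cuts COMP, was highest there too. Vcan, whose product Adamts15 also cleaves, had its lowest mean in GFP-only cells, as Adamts15 did. A link between the levels of proteases and substrates was not tested. Among 10 tested ADAM genes, membrane-bound relatives of which several release growth factors, 1, 7 and 0 were higher and 0, 0 and 1 (Adam19) lower in the 3 comparisons, with Adam33 at 103 ± 40.8, 750.2 ± 571 and 2378 ± 491. Adam22 and Adam23, which lack a working protease site, were among the 7.

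**Figure D5:**
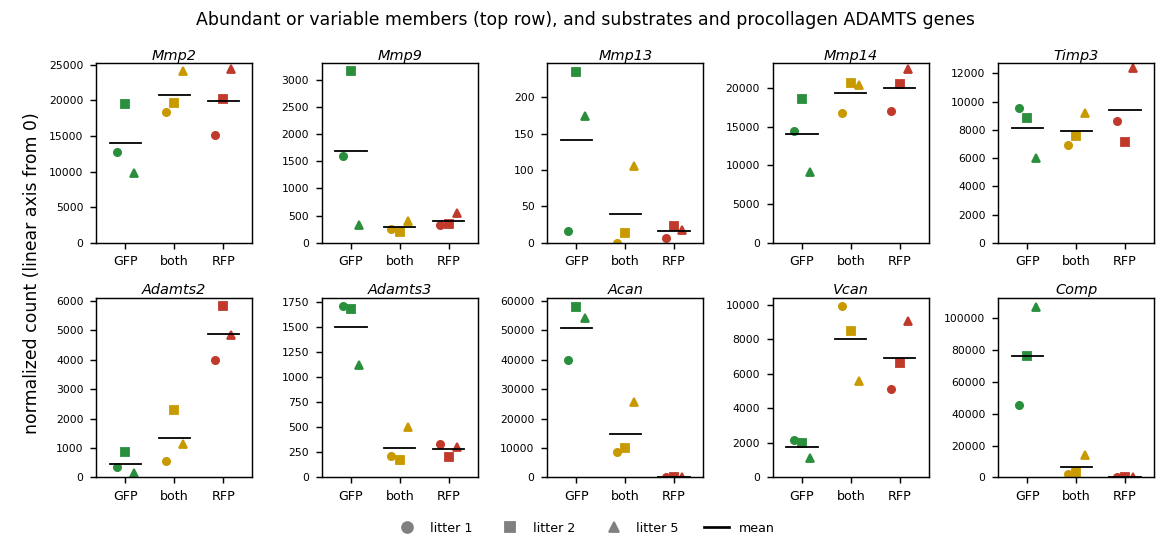
Normalized count (linear y axis from 0) by population (GFP, GFP-only; both, double-positive; RFP, RFP-only) for 5 members (top) and 5 substrate or procollagen ADAMTS genes (bottom), with 1 marker per library shaped by litter and a bar at the mean. Mmp9 is high in 2 of 3 GFP-only libraries, Vcan is low in all GFP-only libraries, and Acan and Comp are near 0 in RFP-only cells.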

How the data were processed

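RNA-seq of 9 bulk libraries was analysed, 3 per sorted population. Tools named without version or role in the submitters' processing notes are STAR, Salmon, FastQC and DESeq2, and the build is mm10. The deposited values are a signal in normalized counts per gene, scaled by the authors. Dividing by the value of 1 read gave whole reads for 100% of values (within 0.001 read). Genes were annotated from GENCODE M21, which matched 54495 identifiers and missed 37.

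Two-sided tests used limma 3.58.1 (R 4.3.3) on log2(normalized count + 1), with the prior variance following a trend in the mean. The added 1 lessens fold changes of low genes, but a single low library can enlarge them. EdgeR gave smaller double-positive rises than limma for Adamtsl2 (2.73 against 3.76) and Adamts16 (2.51 against 3.27), and a larger one for Timp4 (4.17 against 3.95). All 9 libraries entered 1 fit, genes with a mean of at least 10 were kept, and p-values were adjusted over 17764 genes (Benjamini-Hochberg). Values under 0.05 count as called. The fit was also run on simulated data with the same dispersion for every gene and no library that stands apart, which does not bear on the effect of GFP5.

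Members and gene lists were chosen with earlier results of these data known, although the rule for members uses no measured value. Every called member is named. Related genes named, apart from Adam22, come from the 3 smallest adjusted p in a list's main direction and 1 in the other. Of the substrates and partners so picked, Hapln1, Hapln3, Col2a1 and Fbln1 are not described. Other members, Mmp2, Mmp9, Mmp13 and Mmp14 among them, were described whatever their call.

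Per the labels the numbers are litters, so they pair the libraries. Deviations from population means correlated within litters at a median of 0.103 (9 pairs, -0.0353 to 0.149) and between litters at -0.0409. Taking deviations from each population's own mean ties these medians together, so the between-litter one is no separate baseline. Replicate libraries differed beyond counting noise (chi-square per degree of freedom 46.6 to 366). Alternatives changed pseudocount, filter, scaling, trend, weights, block or libraries, or used edgeR 4.0.16 and DESeq2 1.42.0 on recovered reads, and a length correction was added after seeing the data. Protein sequences and 15 members' promoters were not analysed here.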

Additional observations from a re-analysis of the deposited data

How the results depend on the processing

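Double-positive against GFP-only cells gave 12 called members, but 6 with no mean-variance trend, 4 with only the 2 populations compared, and 2 to 12 when 1 library or litter was left out. RFP-only against GFP-only cells gave 18, and 12 to 20 with 1 library or litter left out. Double-positive against RFP-only cells gave 2, but 5 with array weights, 5 with only the 2 populations compared, 1 with litter as a fixed replicate block, and 0 to 3 with 1 library or litter left out. The count of members called 1 way in double-positive cells against each other population was 0, but 1 with array weights and 1 with only the 2 populations compared (Adamtsl3 in both), and 0 throughout when libraries or litters were left out. EdgeR on recovered reads gave 9, 18 and 2 called members, beside 1236, 3191 and 411 of all genes. DESeq2 gave 14, 19 and 3 called members, beside 2780, 4696 and 1152 of all genes. A fixed replicate block gave 11, 18 and 1 called members, beside 1616, 3673 and 558 of all genes. It changed the call of Timp4 (double-positive against GFP-only) and Adamts20 (against RFP-only) among called members. Over all genes, DESeq2 called 2780 and 1152 against 1472 and 506 in the comparisons of double-positive with GFP-only and RFP-only cells. Fits to only the 2 populations called 697 and 1008 there. Array weights called 1545 against RFP-only cells, and the fit with no trend 1035 against GFP-only cells. With 1 library or litter left out, all-gene counts in the 3 comparisons ranged from 229 to 1553, 1598 to 3716 and 112 to 1050 (1472, 3601 and 506 with all libraries). The causes were not tested.

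Signs turned only in differences that were not called; for members never called, Adamts18 (0.87 to -1.01 and 0.59 to -1.29), Adamts6 (0.04 to -0.54 and 0.16 to -0.42), Mmp17 (0.48 to -0.49 in double-positive cells) and Timp3 (0.20 to -0.01 in RFP-only cells) turned against GFP-only cells without GFP5. Adamts9 in double-positive against GFP-only cells became -0.06 with quantile normalization, -0.26 with array weights and -0.15 with length correction, and ranged from -0.31 to 0.34 with 1 library or litter left out. Adamts20 there became -0.16 with quantile normalization and -0.09 with length correction, and ranged from -0.15 to 0.38. Against RFP-only cells, Adamts15 ranged from -0.60 to 0.29 and Adamtsl2 from -0.17 to 0.49 with 1 library or litter left out. With 3 libraries per population, Timp4, Adamtsl2, Mmp13, Mmp25 and Adamts18 had standard errors over 1 on the log2 scale, so differences of that size were not detectable in them.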
